A study of Solanum virginianum with 36 samples.

Results

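The resistant and the susceptible eggplant line were compared at 8 h of feeding by western flower thrips, in 6 of the 36 leaf libraries of the series. The members were taken from the line and the time in the labels, 3 libraries of each line, and the difference was described across all gene IDs. The series followed both lines at 0, 4, 8, 12, 24 and 48 h, with 3 libraries that the labels call biological replicates per line and time, to find what separates a resistant from a susceptible eggplant. Both groups were whole leaves of greenhouse plants exposed to thrips, collected 1 week after transplanting, and they differed only in the line. The labels name no cultivar and give Solanum virginianum, a relative of eggplant, as the organism. Each trait was represented by 1 line, so resistance and any other difference between the 2 genotypes cannot be told apart. In whole leaves, fewer cells of a type and less RNA per cell cannot be told apart either.

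Thrips pierce leaf cells and suck out their content, which leaves silvery scars. Plants answer chewing and cell-sucking insects mainly through jasmonate, a hormone made from membrane lipids that switches on proteinase inhibitors, oxidases and bitter or toxic metabolites. Quinic acid, named in the title of the series, branches off the shikimate pathway, and its ester with caffeic acid is chlorogenic acid, the main phenolic of eggplant. The files give gene IDs without names or descriptions, so none of these pathways could be assigned to an ID, the leaf markers could not be checked, and the IDs below carry no known function.

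Estimated counts over rows with an ID came to 34144851 to 37622846 per resistant and to 38761179 to 41736557 per susceptible library at 8 h. A count was found for 23066 to 23169 IDs in the resistant and for 25046 to 25077 IDs in the susceptible libraries. The 100 most abundant IDs of a library held 16.4 to 21.9% of its counts in the resistant line and 15.9 to 19.98% in the other line. Rows without an ID held 5.15 to 5.32% of the counts in the resistant and 6.09 to 7.28% in the susceptible line. Across the 23719 IDs tested, log2 CPM (counts scaled to a common library total) correlated at 0.941 to 0.965 between replicates and at 0.805 to 0.818 between lines. Along the first principal component of the 6 libraries, which carried 73.0% of their variance, the line of origin split them, with scores from -154 to -151 for resistant and from 146 to 160 for susceptible leaves. How the 8 h libraries of each line compared with the times of the other line is described near the end.

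The first comparison asked which genes the lines expressed differently at 8 h. Of the 23719 IDs tested, 10141 (42.8%) passed edgeR's quasi-likelihood test at an adjusted p of 0.05. In the resistant line 4384 IDs (18.5% of those tested) were higher and 5757 (24.3%) were lower. The scaling sets the centre of the differences near 0, with a median log2 difference of -0.02 over IDs with a mean of at least 1 CPM. The differences were larger on the side of the susceptible line. Of the IDs lower in the resistant line, 52.5% differed by at least 2 on the log2 scale, against 33.5% of those that were higher. These shares include IDs without a count in 1 line, and among IDs with at least 1 CPM in each of the 6 libraries they were 15.5 and 6.15%. The libraries of the lines did not overlap for 11831 IDs (49.9%), and the resistant line was the higher one in 5250 of these. Of the 10141 called IDs, 855 had overlapping libraries. A fit of only the 6 libraries called 7316 IDs, 2970 higher and 4346 lower, and with a replicate block 4636, 1736 higher and 2900 lower. Leaving out 1 library of 8 h gave 8533 to 9381.

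**Figure D1:**
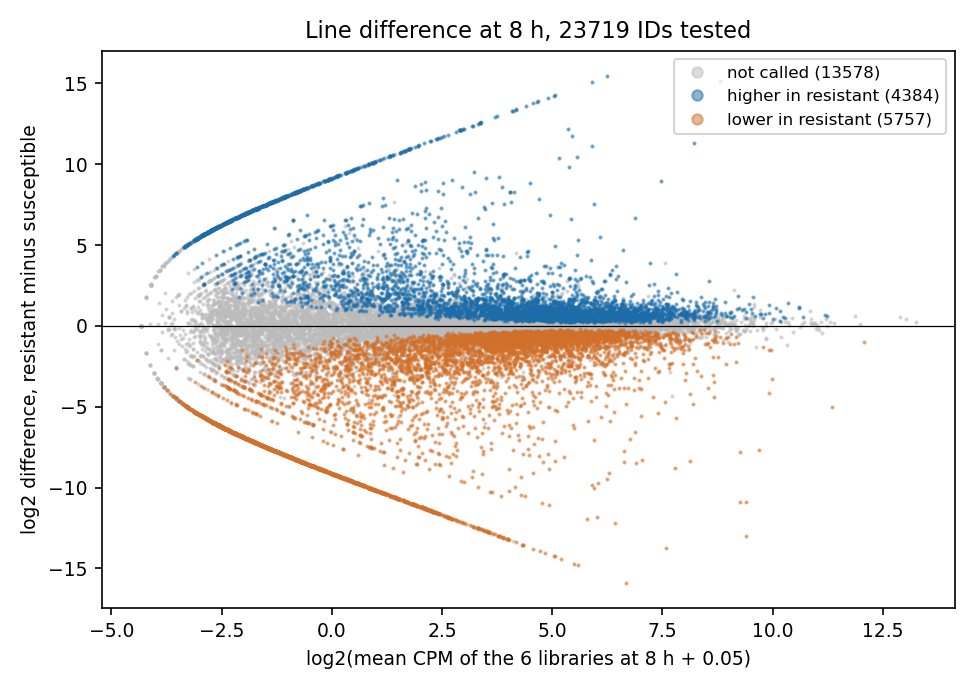
Each point is 1 of the 23719 IDs tested at 8 h, with the log2 of its mean CPM plus 0.05 over the 6 libraries on the x axis and the fitted log2 difference, resistant minus susceptible, on the y axis. The 4384 IDs called higher are blue, the 5757 called lower are orange, and the 2 arcs are IDs without a count in 1 line, whose fitted differences depend on the prior count and are no measure of size.

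The split by direction differed between IDs seen in all libraries and the rest. Among the 14813 IDs with at least 1 CPM in each of the 6 libraries, 5904 (39.9%) were called, 2926 higher and 2978 lower. Among the other 8906 IDs, 4237 (47.6%) were called, 1458 higher and 2779 lower. These hold IDs of any level that 1 line lacks, since the line difference itself decides which IDs reach 1 CPM in each library. Within the IDs seen in all 6 libraries the median size of a called difference was 0.88 on the log2 scale. A difference of at least 4 on that scale was reached by 9 of the 2926 higher and by 39 of the 2978 lower IDs. The split also moved with the level, taken as the mean CPM over all 36 libraries. Under 1 CPM, 802 of the 2318 called IDs (34.6%) were higher in the resistant line. From 1 to 10 CPM it was 36.5% of 2764, and from 10 to 100 CPM it was 48.6% of 4197. At 100 CPM and over, 534 of the 862 called IDs (61.9%) were higher in the resistant line. Over 17 alternatives the share ran from 31.1 to 37.6% in the lowest class and from 47.1 to 67.3% in the highest. The value of 47.1% came from a fit of the 6 libraries with a replicate block, and the lowest of the others was 52.9%, without susceptible replicate 1. From 10 to 100 CPM the majority turned with the scaling, to 56.6% higher in limma on log2(FPKM + 1), where FPKM are the authors' length-scaled values. The share of IDs called hardly moved with the level, from 41.5% in the lowest to 43.3% in the highest class.

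**Figure D2:**
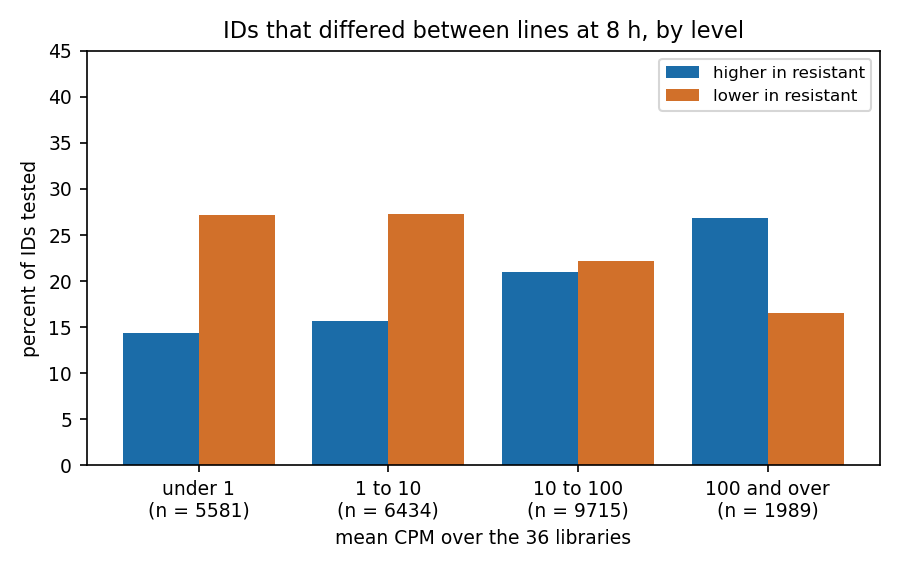
Bars give the percent of the IDs tested that were called higher (blue) or lower (orange) in the resistant line at 8 h, in 4 classes of mean CPM over the 36 libraries, with the number tested under each class. The lower calls lead below 10 CPM, and the higher calls lead at 100 CPM and over, where 534 were higher and 328 lower.

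The most abundant transcripts were largely shared. Of the 100 most abundant IDs of each line at 8 h, 67 were in both lists, and of the first 10, 7 were in both. The 133 IDs of both lists together held 33 called higher (24.8%) and 23 called lower (17.3%) in the resistant line. Their median absolute difference was 0.53 on the log2 scale. Read against 18.5 and 24.3% over all IDs, the abundant IDs were called in about the same share in total.

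By the rule for named IDs, the 2 most higher and the 2 most lower IDs with at least 1 CPM in every library of 8 h were taken. The rule also asked for a call and for no overlap of the lines. The separation and the small adjusted p of these IDs are thus fixed by the choice and are no separate evidence. Sme2.5_05769.1_g00003 stood at 140, 154 and 101 CPM in the resistant and at 4.51, 3.16 and 1.11 CPM in the susceptible libraries. The lowest resistant library lay far above the highest susceptible one, with group means of 132 ± 27.7 and 2.93 ± 1.71 CPM (SD, n = 3). The log2 difference was 5.49 ± 0.618 (SE; edgeR adjusted p = 7.4e-08). Scaled by length, the authors' FPKM for this ID were 144, 178 and 117 against 4.79, 3.48 and 1.12. This ID was higher in the resistant line at all 6 times, and its level there was highest at 12 h, at 259 ± 13.7 CPM (SD, n = 3).

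Sme2.5_01501.1_g00003 stood at 103, 51.5 and 38.2 CPM in the resistant and at 1.97, 1.48 and 2.68 CPM in the susceptible libraries. The resistant libraries spread widely, with replicate 1 above the sum of the other two, yet none came near the susceptible ones. The log2 difference was 4.97 ± 0.420 (SE; edgeR adjusted p = 6.4e-10). Both lines had their highest mean at 4 h, 76.3 ± 5.62 CPM for resistant and 3.94 ± 1.20 CPM for susceptible leaves (SD, n = 3). The line difference at 8 h less its mean at the other times was 0.05 on the log2 scale, against a standard error of 0.418.

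On the other side, Sme2.5_03183.1_g00006 stood at 5.34, 6.94 and 4.40 CPM in the resistant and at 1420, 1252 and 966 CPM in the susceptible libraries. The groups lay apart by more than their spread, with a log2 difference of -7.77 ± 0.733 (SE; edgeR adjusted p = 3.9e-09). The authors' FPKM were 2.97, 4.41 and 2.78 in the resistant and 822, 753 and 532 in the susceptible libraries. In the susceptible line this ID kept a mean of 704 to 1477 CPM from 0 to 24 h and stood at 208 ± 73.0 CPM (SD, n = 3) at 48 h.

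Sme2.5_04984.1_g00003 stood at 4.64, 10.4 and 9.14 CPM in the resistant and at 1492, 2967 and 444 CPM in the susceptible libraries. Its susceptible libraries differed among themselves by more than those of any other ID named for the line difference, and the log2 difference was -7.66 ± 1.16 (SE; edgeR adjusted p = 6.8e-06). The 4 IDs kept their direction and their call in each of the alternatives that held them, 17 for the first 3 and 14 for Sme2.5_04984.1_g00003, which has no FPKM in the table used. All 4 were called in the same direction at each of the other 5 times, so none of them is particular to 8 h.

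**Figure D3:**
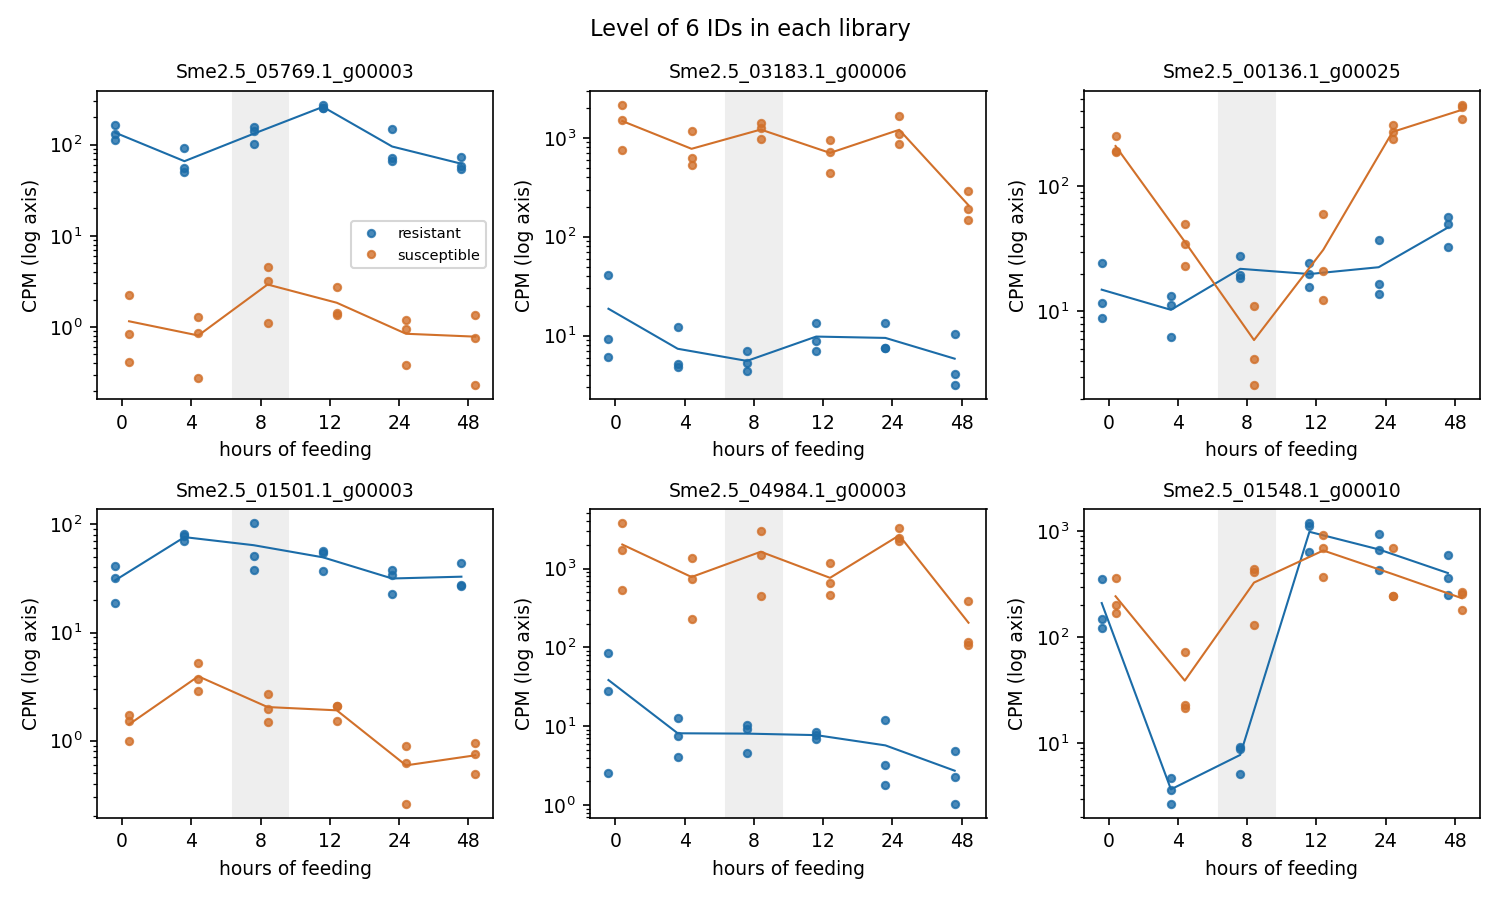
Points are the CPM of single libraries on a log axis against hours of feeding, lines join the means of the 3 libraries, and 8 h is shaded. The first 2 columns hold the 4 IDs named for the line difference at 8 h, whose lines stay apart at every time, and the last column holds the 2 IDs named for a line difference at 8 h that departs from its mean over the other times, whose lines cross or meet.

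Some IDs were counted in 1 line only at 8 h. With no count in the 3 libraries of one line and at least 1 CPM in each of the 3 of the other, 140 IDs were seen in the resistant line only and 455 in the susceptible line only. All of them were tested, and 139 and 454 were called, which the way they were chosen fixes. The medians of their mean levels were 3.85 and 3.95 CPM, and the highest reached 152 and 203 CPM. Taking 3 counts, summed over the 3 libraries of the other line, as a floor that covers counting error only, the median ID was at least 154-fold higher in the resistant line for the first set and at least 143-fold higher in the susceptible line for the second. Together they made up 0.146 to 0.186% of a resistant and 0.400 to 0.454% of a susceptible library. With at least 5 CPM asked for, 46 and 148 IDs were left.

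Most of the IDs seen in the resistant line only were also without counts in the susceptible line at other times, 98 of 140 in all 18 of its libraries. Of those seen in the susceptible line only, 172 of 455 had no count in any of the 18 resistant libraries. Resistant replicate 3 at 48 h held a count for 238 of the 455, against 4 to 27 in each of the other resistant libraries outside 8 h. Without that library, 335 of the 455 had no count in the resistant line. Its median level over the 455 was 0.627% of the susceptible level at 8 h, and the highest was 144%. Whether a line lacks such an ID, does not transcribe it or has reads that do not match the reference was not tested.

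The calls at 8 h were then set beside those at the other times, which use other libraries but share the estimate of spread per ID. Of the 10141 IDs called at 8 h, 4050 (39.9%) were called in the same direction at all 5 other times. At the other end, 1909 (18.8%) were called in that direction at no other time, and 1361 of these at no other time in either direction, 668 higher and 693 lower. The share of the 8 h calls found again in the same direction was 60.6% for 0 h and 65.3% for 4 h, the nearest time before. It was 60.2, 59.8 and 58.0% for the 3 later times. As a share of the calls at the other time, 0 to 48 h in order, these were 74.7, 67.4, 57.6, 65.2 and 58.7%, where 34.6, 41.4, 44.7, 39.2 and 42.3% of all IDs were called. Feeding time and hour of the day were not separated, and later leaves without thrips were not analysed here. Opposite calls were fewer before 8 h, with 45 IDs for 0 h and 73 for 4 h, than after it, with 274, 218 and 394 IDs for the 3 later times. At 12 h they were evenly split, with 136 IDs higher in the resistant line at 8 h and 138 lower. At 24 h, 155 of the 218 were lower in the resistant line at 8 h and higher at 24 h.

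**Figure D4:**
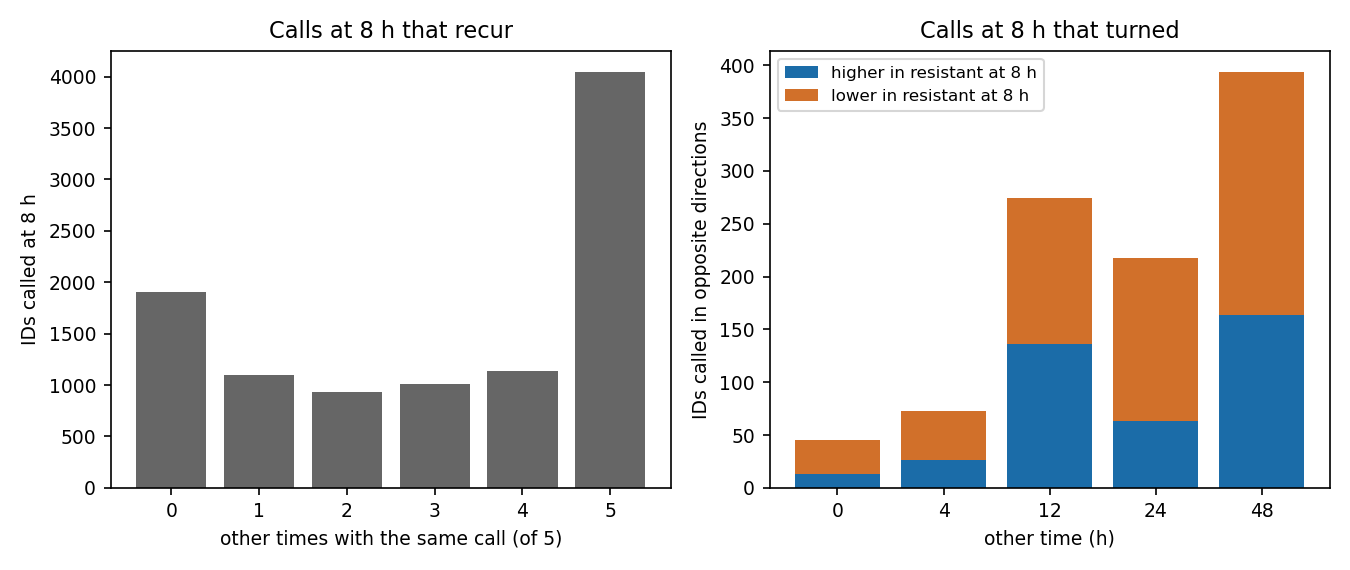
Left, the number of IDs called at 8 h by how many of the 5 other times gave the same call, with 1909 at none and 4050 at all. Right, the number of IDs called in opposite directions at 8 h and at the time on the x axis, split by their direction at 8 h, with 45 at 0 h and 394 at 48 h.

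A call at 8 h alone does not show that the difference departs from that at other times, so the line difference at 8 h was tested against its mean over the other 5 times. This passed for 2850 IDs (12.0%) in edgeR's quasi-likelihood test. The line difference shifted toward the resistant line for 1173 and toward the susceptible line for 1677 of them. Of the 1173, 710 (60.5%) were higher in the resistant line at 8 h by their own test. The median difference of the 1173 was -0.26 for the mean of the other times and 0.69 at 8 h (log2). Of the 1677, 1011 (60.3%) were lower in the resistant line at 8 h. The medians of the 1677 were 0.30 at the other times and -0.72 at 8 h. Over all IDs tested, 18.5% were called higher and 24.3% lower. Of the 1361 IDs called at 8 h and at no other time, 568 passed. The shift and the calls at 8 h share libraries, and the IDs were chosen by the shift. The direction of these moves is thus fixed by the choice, and the shares are no separate evidence. The count rested on single libraries. Without resistant replicate 3 of 8 h it was 1144 and without susceptible replicate 1 of 8 h it was 1261, while leaving out each of the other 8 h libraries gave 2157 to 2594. Without the 12 h libraries, and so against 4 times, it was 1863.

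Each line was also tested at 8 h against the mean of its own other times, a contrast added after the 2850 IDs had been seen. In the resistant line 4017 IDs (16.9% of those tested) passed edgeR's test, 2082 higher and 1935 lower at 8 h. In the susceptible line 3176 (13.4%) passed, 1907 higher and 1269 lower. Among the 2850 IDs, the resistant line alone passed for 1281 (44.95%), 566 higher and 715 lower at 8 h. The susceptible line alone passed for 945 (33.2%), 610 higher and 335 lower. Both lines passed in opposite directions for 160 IDs (5.61%). In 107 of these the resistant line was lower and the susceptible line higher at 8 h. Both passed in the same direction for 43 (1.51%) and neither passed for 421 (14.8%). These contrasts share the 8 h libraries with the line difference at 8 h, so the overlaps describe the 2850 IDs and are no separate evidence.

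The next 2 IDs were chosen as the largest shifts among IDs that passed against the mean of the other times, so the shifts are no separate evidence. Sme2.5_00136.1_g00025 shifted most toward the resistant line, among IDs with at least 1 CPM in every library. At 8 h it stood at 27.6, 18.4 and 19.7 CPM in the resistant and at 11.01, 4.15 and 2.57 CPM in the susceptible libraries, without overlap. At 0 h the order was the reverse, with 11.8, 8.81 and 24.3 CPM against 251, 191 and 188 CPM. The susceptible mean was lowest at 8 h, at 5.91 ± 4.49 CPM, and stood at 36.1 ± 13.7 CPM at 4 h and 31.1 ± 25.3 CPM at 12 h (SD, n = 3). The resistant means stayed between 10.3 and 46.9 CPM, so most of the swing was in the susceptible line. The log2 difference at 8 h was 1.89 ± 0.512 (SE; edgeR adjusted p = 0.0040), and less the mean of the other times it was 4.49 ± 0.596 (SE; edgeR adjusted p = 9.9e-05).

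Sme2.5_01548.1_g00010 shifted most toward the susceptible line. At 8 h it stood at 5.16, 9.28 and 8.86 CPM in the resistant and at 441, 411 and 132 CPM in the susceptible libraries. At 4 h both lines were low, with 3.68 ± 1.03 and 39.0 ± 29.2 CPM, and at 12 h both were high, with 987 ± 303 and 658 ± 274 CPM (SD, n = 3). At 8 h the resistant libraries thus stood near their level at 4 h, while the susceptible ones lay on both sides of their 0 h libraries, which stood at 169 to 360 CPM. The log2 difference at 8 h was -5.40 ± 0.641 (SE; edgeR adjusted p = 1.7e-07), and less the mean of the other times it was -5.10 ± 0.659 (SE; edgeR adjusted p = 7.1e-05). The lines also differed at 4 h, by -3.40 (edgeR adjusted p = 4.4e-05). At 0, 12, 24 and 48 h the line difference lay between -0.21 and 0.79, with edgeR adjusted p of 0.24 to 0.80.

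The line difference at 8 h was also tested against that at single times, before feeding and at 12 h. Against 0 h, 299 IDs (1.26%) passed edgeR's interaction test, 105 toward the resistant and 194 toward the susceptible line. At an unadjusted p under 0.05 it was 3546 IDs, and DESeq2 called 990. The edgeR count fell to 112 without susceptible 0 h replicate 3, to 113 without resistant 0 h replicate 2 and to 150 without susceptible 8 h replicate 1. It was 176, 194 and 178 without resistant 8 h replicates 1, 2 and 3, and 57 in a fit of only the 12 libraries. With a replicate block in that fit it was 18, of which 10 shifted toward the resistant line. Against 12 h, 2739 IDs (11.5%) passed edgeR's interaction test, 1191 toward the resistant and 1548 toward the susceptible line. The majority turned in a fit of only the 12 libraries, with 1213 and 1135, and in limma on log2(FPKM + 1), with 1194 and 1123. Without 1 library it was 611 for susceptible 12 h replicate 1, 1001 for resistant 8 h replicate 3, 1151 for resistant 12 h replicate 2, 1173 for susceptible 8 h replicate 1 and 1736 for resistant 12 h replicate 3. Whether the number of IDs against 12 h exceeded that against 0 h beyond the spread of the libraries was not tested.

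The time of the other line with which the 8 h libraries correlated best differed between the lines. For each 8 h library, the log2 CPM of 18138 IDs less the mean of its line was correlated with the profile of each time of the other line, centred in the same way. These are correlations across IDs, which are not independent replicates and share the library and the centring. The 3 resistant 8 h libraries correlated best with the susceptible line at 4 h, at 0.217 to 0.281. With the susceptible line at 8 h they stood at 0.0632 to 0.206, and at 12 h at 0.145 to 0.267. For resistant replicate 2 the values at 4 and 8 h lay close, 0.217 and 0.206. For resistant replicate 3 those at 4 and 12 h lay close, 0.281 and 0.267. Susceptible replicates 1 and 3 correlated best with the resistant line at 12 h, at 0.280 and 0.283, and their correlations with its 8 h profile were lower, 0.0488 for replicate 1. Susceptible replicate 2 correlated best with the resistant line at 8 h, at 0.238. Taken as group means, the resistant 8 h profile stood at 0.321, 0.176 and 0.255 with the susceptible 4, 8 and 12 h profiles. The susceptible 8 h profile stood at 0.311 with the resistant 12 h profile and at 0.176 with the resistant 4 h and 8 h profiles. Libraries of other times were not set against the other line in this way, so whether this is particular to 8 h was not tested. The libraries whose omission moved the count against the mean of the other times most, resistant replicate 3 and susceptible replicate 1, were those with the lowest correlations with the 8 h profile of the other line. Both measures are taken from the same 8 h libraries, and the match was seen afterwards, so it is no separate evidence. How far these time matches enter the line difference at 8 h was not tested.

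**Figure D5:**
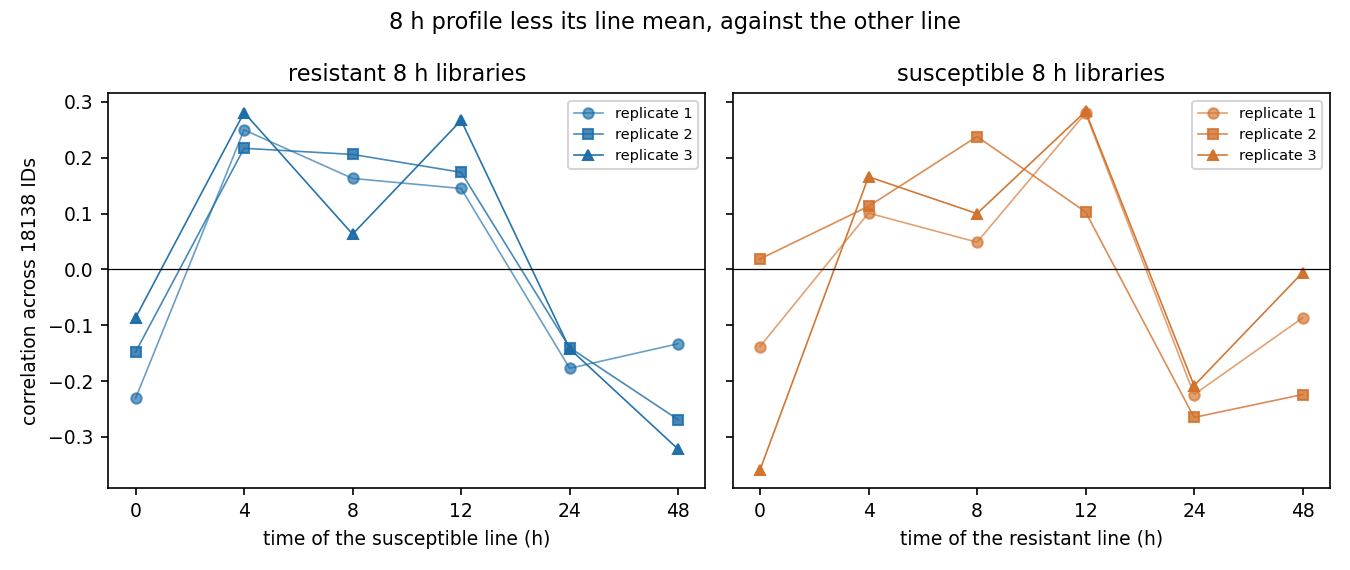
Each line is 1 library of 8 h, in the resistant line on the left and in the susceptible line on the right. The y axis gives the correlation across 18138 IDs of its log2 CPM, less the mean of its line, with the equally centred profile of the other line at the time on the x axis. The resistant libraries peak at 4 h of the susceptible line, with replicate 3 nearly as high at 12 h. Of the 3 susceptible libraries, 2 peak at 12 h of the resistant line.

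The IDs carry a stem and a running number, and tested IDs that follow each other by number on the same stem were taken as neighbours. Of 15203 such pairs, both members were higher in the resistant line in 603 and both lower in 967, together 10.3% of the pairs. The call rates alone would give 9.31%. Calls in opposite directions were found in 7.31% of the pairs, against 8.97% from the rates. Among IDs with at least 1 CPM in each library the share in the same direction was 8.13%, against 7.94% from the rates. This gap was smaller than that over all pairs, and neither gap was tested. Of the 455 susceptible-only IDs, 32 (7.03%) directly followed or preceded another of their kind among the IDs with a count at 8 h. Of the 140 resistant-only IDs, 2 (1.43%) did. These sets made up 1.52 and 0.468% of the IDs with a count at 8 h, and an ID can have a neighbour on each side. Whether such IDs lie together more often than others was not tested.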

How the data were processed

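The authors deposited a table of estimated counts, all whole numbers, for each gene ID and, for 62643 of the 85443 IDs, FPKM, with 1 column per library, per the file headers. Per the submitters' processing notes, FastQC and HTSeq 0.6.1 were used, and the aligner and genome build are not given in the sources used here. Rounding was checked on 8667 IDs whose FPKM and count kept a fixed ratio (within 0.05 on the natural log scale). There a deposited 1 stood for a median of 0.216 and a deposited 2 for 1.49. Of their deposited values from 1 to 5, 84.9% had an estimate within the unit below. Most small counts of these IDs are thus estimates rounded up, and the other IDs were not checked. The counts were used as whole numbers, and 1 count is not 1 read. The 3945 rows without an ID, 4.46 to 7.28% of a library, stayed out of library sizes and tests.

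Tests were run in R 4.3.3 with edgeR 4.0.16 (quasi-likelihood, TMM, filterByExpr, 12 group means over 36 libraries, Benjamini-Hochberg adjustment at 0.05) on 23719 IDs, which held 99.97% of the counts at 8 h. Standard errors come from the F statistic. DESeq2 1.42.0 and limma 3.58.1 on log2(FPKM + 1) or log2(FPKM + 0.1), at a mean FPKM of at least 0.1, were alternatives, and CPM were computed on TMM-scaled library totals. Named IDs were the 2 highest and 2 lowest log2 differences among called IDs with at least 1 CPM in each 8 h library, a mean of 5 CPM or more in the higher line and no overlap, plus 1 each way against the mean of the other times with at least 1 CPM in all libraries. The tests were checked on simulated data, with changes put into the resistant 8 h libraries for IDs at 1 CPM or more. The edgeR test at 8 h found 50% of 2-fold and 76% of 4-fold changes, and that against the mean of other times 41 and 75%. Against 0 h it found 14 and 53%, and against 12 h 18 and 56%. Only few simulated IDs were changed, and all others had 1 mean over the 36 libraries. These shares thus need not hold in the real data, where far more IDs were called. Chi-square per ID between replicates at 8 h was 94.0 to 199, more than sampling noise gives, so each library counted once. Comparison, rules and lists were chosen with earlier results of these data known. The gene lists set for defence pathways could not be tested, since IDs have no names here.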

Additional observations from a re-analysis of the deposited data

Results flagged for a closer look

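Several results stood out because the difference between the lines was not the same at 8 h as at another time, by a test of that difference itself. The line difference at 8 h departed from that at 0 h for 299 IDs and from that at 12 h for 2739 IDs. It departed from its mean over the other 5 times for 2850 IDs. In simulated data with few changed IDs these tests found 14, 18 and 41% of 2-fold changes. Those shares need not hold in the real data, and the counts of these tests cannot be compared directly. For Sme2.5_00136.1_g00025 the line difference at 8 h, less the mean of the other times, was 4.49 on the log2 scale, with resistant libraries above susceptible ones at 8 h and below them at 0 h. For Sme2.5_01548.1_g00010 it was -5.10, with the lines apart at 8 h and, by -3.40, also at 4 h, and without a called difference at 0, 12, 24 and 48 h. A further result lay outside the comparisons, in the rows without a gene ID. Of 3297 such rows in an edgeR fit of the same design, 1826 (55.4%) passed for the line difference at 8 h. Of these, 691 were higher in resistant and 1135 higher in susceptible leaves. That fit took library sizes, scaling and spread from these rows alone. Its share and split are thus not on the same scale as the 42.8% called among IDs.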

How the results depend on the processing

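The count of IDs that differed between the lines at 8 h stayed within 1.5 times of 10141 in 16 of 17 alternatives. It was 4636 with a replicate block in a fit of only the groups compared, and 8533 to 9381 without 1 library. The alternatives did not all test the same number of IDs, with 16488 in limma on FPKM. Against 0 h, DESeq2 gave 990 IDs, limma on log2(FPKM + 1) 489, the fit of only the groups compared 57 and that fit with a replicate block 18, while leaving out 1 library gave 112 to 389. Against 12 h, DESeq2 gave 4295 and the replicate block in the fit of only the groups compared 1026, with 611 to 3141 without 1 library. Against the mean of the other times it was 1144 to 2594 without 1 library of 8 h and 1863 without the 12 h libraries. That setting and the fits without resistant 48 h replicate 3 (10262, 293, 2619 and 2678 IDs) were chosen after seeing the data. IDs seen in 1 line only numbered 220 in the resistant line at a minimum of 0.5 CPM, 46 there and 148 in the susceptible line at 5 CPM, and 148 to 172 and 487 to 529 without 1 library. The share of neighbours in the same direction was 8.13% at 1 CPM in each 8 h library. The 6 named IDs kept their direction and call in all their alternatives. With all 36 libraries the replicate block gave 10126, 279, 2992 and 2926 IDs. Between the lines at 8 h, deviations of same-numbered libraries from their group means correlated at 0.0409, 0.0308 and -0.0769. Of the 3 resistant libraries, 1 correlated best with its own number. With 3 libraries per group these deviations are tied to each other, so the values cannot settle whether replicate numbers pair the lines. Against 0 h, 35.1% of the IDs shifted toward the resistant line, against 47.4% in the fit of only the groups compared and 55.6% of 18 with the replicate block. Against 12 h it was 43.5%, and 51.7% in the fit of only the groups compared, 51.5% in limma on log2(FPKM + 1) and 51.6% on log2(FPKM + 0.1). The causes were not tested. By level, 41.5% of IDs were called under 1 CPM and 43.3% at 100 CPM and over.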
